A study of Mus musculus with 6 samples.

Results

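The 10 genes described here encode the core machinery by which a mammalian cell takes up, stores, releases and senses iron: Tfrc, Trf, Steap3, Slc11a2, Fth1, Ftl1, Ncoa4, Slc40a1, Aco1 and Ireb2. They were found by symbol among the 24411 genes of the deposited tables, and all 10 were present. RNA was sequenced from whole testes of C57BL/6 mice, an inbred laboratory strain, with 3 libraries from animals whose genotype is given as MRP5-/- and MRP9-/- (labelled DKO, for double knockout) and 3 from wildtype animals of matched age (labelled WT). MRP5 and MRP9 are membrane transporters of the ABCC family, encoded by Abcc5 and Abcc12. The labels give neither the age of the mice nor the design of the mutant alleles, and no treatment is named.

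Iron travels in blood and in tubule fluid bound to transferrin. The transferrin receptor carries this complex into endosomes, where a ferrireductase converts the iron and a divalent metal transporter moves it into the cytosol. There it is used, stored inside ferritin shells, or exported through ferroportin. A pair of RNA-binding proteins, the iron regulatory proteins IRP1 and IRP2, balances these routes. When iron is scarce they bind hairpins called iron responsive elements: binding near the start of a message blocks its translation, and binding in the tail of the transferrin receptor message protects it from decay. In the testis, Sertoli cells secrete transferrin to the germ cells they support, which the barrier between Sertoli cells separates from blood.

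The hairpins are shown first because such elements are the known binding sites of the iron regulatory proteins. The transcripts of all 10 genes were searched on the transcript strand for a C, 5 bases, the loop CAGTGN and 5 further bases, with all 5 bases on either side of the loop able to pair (A with T, G with C, or G with T). Such a core was found in 4 of the 10 genes, Tfrc, Fth1, Ftl1 and Slc40a1, against 1.14% of the 23875 genes with a transcript to search (271 genes). The search was set to the known form of the element and checked on the Fth1 core, so the share among the 10 is no result about them. A match is a description of the letters and not a measurement of binding. Each window below has 30 bases of the GENCODE M21 transcript (build GRCm38), written 5′ to 3′, with the unpaired C and the loop in capitals.
Fth1, 5′ UTR, chr19:9982732-9982761, plus strand: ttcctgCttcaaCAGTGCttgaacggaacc
Ftl1, 5′ UTR, chr7:45459778-45459807, minus strand: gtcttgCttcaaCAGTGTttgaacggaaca
Slc40a1, 5′ UTR, chr1:45925464-45925493, minus strand: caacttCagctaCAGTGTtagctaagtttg
Tfrc, 3′ UTR, chr16:32631219-32631248, plus strand: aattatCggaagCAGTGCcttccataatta
Tfrc, 3′ UTR, chr16:32631598-32631627, plus strand: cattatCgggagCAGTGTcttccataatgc
Tfrc, 3′ UTR, chr16:32631663-32631692, plus strand: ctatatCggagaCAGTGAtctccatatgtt
Tfrc, 3′ UTR, chr16:32631710-32631739, plus strand: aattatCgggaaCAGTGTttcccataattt
Slc11a2, 3′ UTR, chr15:100395152-100395181, minus strand: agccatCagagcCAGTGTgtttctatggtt
The Slc11a2 window has 4 of the 5 pairs. It was added after its sequence was seen, because the message is known to carry an element of irregular shape. It lies in the longer of the gene's transcripts that the tables list (4415 bases, in the 3′ UTR), and no such window was found at its place in the shorter one (3025 bases).

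Some features of the libraries bear on every value below. The libraries labelled DKO held 42673615 to 67131103 expected counts and those labelled WT 26753721 to 31745969. Their mean fragment lengths were 275 to 317 and 230 to 258 bases, so neither depth nor fragment length overlapped between the groups. Fold changes across all genes also followed GC content: in the tenth of genes with the lowest GC content the median log2 fold change was 0.29, and in the tenth with the highest it was -0.23. No label gives a batch of library preparation, so these features and genotype cannot be told apart. Values with the trends on length and GC content removed are given for each of the 10 genes. The targeted genes were read as a check of the labels. Abcc12 was at 79.0 ± 5.56 CPM in libraries labelled DKO and 160.3 ± 3.93 in those labelled WT (SD, n = 3 each), whereas Abcc5 was higher in those labelled DKO, at 16.8 ± 0.190 against 11.4 ± 0.898 CPM, so groups are named by their labels throughout. Against 5.75% of all tested genes called higher and 5.1% called lower, 4 of 10 Leydig cell markers fell (median log2 fold change -0.49, and -0.59 with the trends removed). DESeq2 called 3 of these markers (19.7% of all tested genes), and 2 were called with the trends removed (2.96%). Their summed level overlapped, at 511 to 739 CPM in libraries labelled DKO and 719 to 1377 CPM in those labelled WT. Of 10 markers of peritubular and endothelial cells 1 fell (median -0.22, and -0.18 with the trends removed). All 10 peritubular and endothelial markers had fold changes below 0. Their summed level was 152 to 170 CPM in libraries labelled DKO and 174 to 218 CPM in those labelled WT, without overlap. Of 10 spermatocyte markers 1 rose, Sycp3 at 0.67, and the list had a median of 0.20 (0.05 with the trends removed). Of these markers, 6 of 10 had an unadjusted edgeR p under 0.05 (31.7% of all tested genes), and DESeq2 called 4 (19.7%). Their summed level overlapped, at 2890 to 3106 CPM in libraries labelled DKO and 2984 to 3126 CPM in those labelled WT. Of 10 spermatid markers 1 fell, Prm3 at -2.64 (edgeR adjusted p = 0.00076). The list had a summed level of 16780 to 21110 CPM over all libraries and a median of -0.11 (0.09 with the trends removed). Of 8 tested spermatogonia markers 0 were called, with a median of 0.02 (0.03 with the trends removed). The part of these cells in the results was not tested. The 10 epididymis markers summed to 5.08 to 6.95 CPM, most of it Rnase10 at 4.36 to 6.27 CPM, and Lcn5 and Lcn8 were listed at 0 in every library.

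Levels per library are given as CPM, counts scaled to a common library total by TMM, and levels are compared between genes as TPM, which also divides by transcript length. In TPM, Fth1, the heavy ferritin chain that oxidises iron as it enters the shell, was the most abundant of the 10, at 256 to 429 over the 6 libraries. Ftl1, the light chain that helps the mineral core to form, followed at 106 to 157 TPM, and Ncoa4, the receptor that delivers ferritin to lysosomes for breakdown, at 81.5 to 99.2 TPM. Ireb2 stood at 23.96 to 36.03 TPM, apart from its neighbours in this order. Below it the ranges of adjacent genes overlapped in pairs. Trf had 12.6 to 20.8 TPM and Slc11a2 9.65 to 14.8 TPM. Tfrc had 5.40 to 7.57 TPM and Aco1 4.31 to 6.63 TPM. Steap3, at 0.89 to 1.58 TPM, and Slc40a1, at 0.66 to 1.16 TPM, were the least abundant and rest on 46 to 108 and 38 to 154 counts a library.

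Between labelled DKO and labelled WT, 3 of the 10 genes passed an adjusted p under 0.05 in the edgeR quasi-likelihood test: Fth1 and Trf were lower and Tfrc was higher in libraries labelled DKO. Across all 17110 tested genes the share called was 10.8%, with 5.75% higher and 5.1% lower. The CPM of the groups did not overlap for 5 of the 10 genes, against 35.9% of all tested genes. The median log2 fold change of the 10 was -0.21 (all tested genes: -0.0042), with 4 above and 6 below 0, and the median size was 0.34 (all tested genes: 0.18). All 10 passed the count filter. Across the alternatives the genes called changed with the setting. An effective-length offset in edgeR called the same 3 (10.2% of all tested genes), and DESeq2 called these and Ireb2 (19.7%), as did edgeR with no count filter (11.0%) and on counts thinned to the smallest total (11.6%). Limma on log2(TPM + 1) called Fth1 and Trf (4.3%). With the trends on length and GC content removed edgeR called 0 of the 10 (2.96% of all tested genes called). In that fit 3 of the 10, and 3680 of all 17110 tested genes, had an unadjusted p under 0.05. With fragment length as a covariate it called 0 (0.00584%), with 0 of the 10 and 563 of all tested genes under that p. Without DKO replicate 3, edgeR called 6 (17.7%), adding Ireb2, Ftl1 and Ncoa4, and without WT replicate 1 it called Fth1, Trf, Ireb2 and Aco1 (11.7%). Without DKO replicate 2 it called Fth1 alone (3.83%). Without DKO replicate 1, WT replicate 2 or WT replicate 3 it called 0, with 4, 4 and 6 of the 10 under an unadjusted p of 0.05. Among all tested genes, 3571 of 17097, 3793 of 17403 and 4326 of 17431 were under that p. In these 3 fits the share of all genes called fell to 0.0643%, 0.0747% and 0.0402%, or 11, 13 and 7 genes, so nearly all calls across the genome were lost there. Because tissue was sequenced whole, fewer cells of a type and less RNA per cell cannot be told apart.

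**Figure D1:**
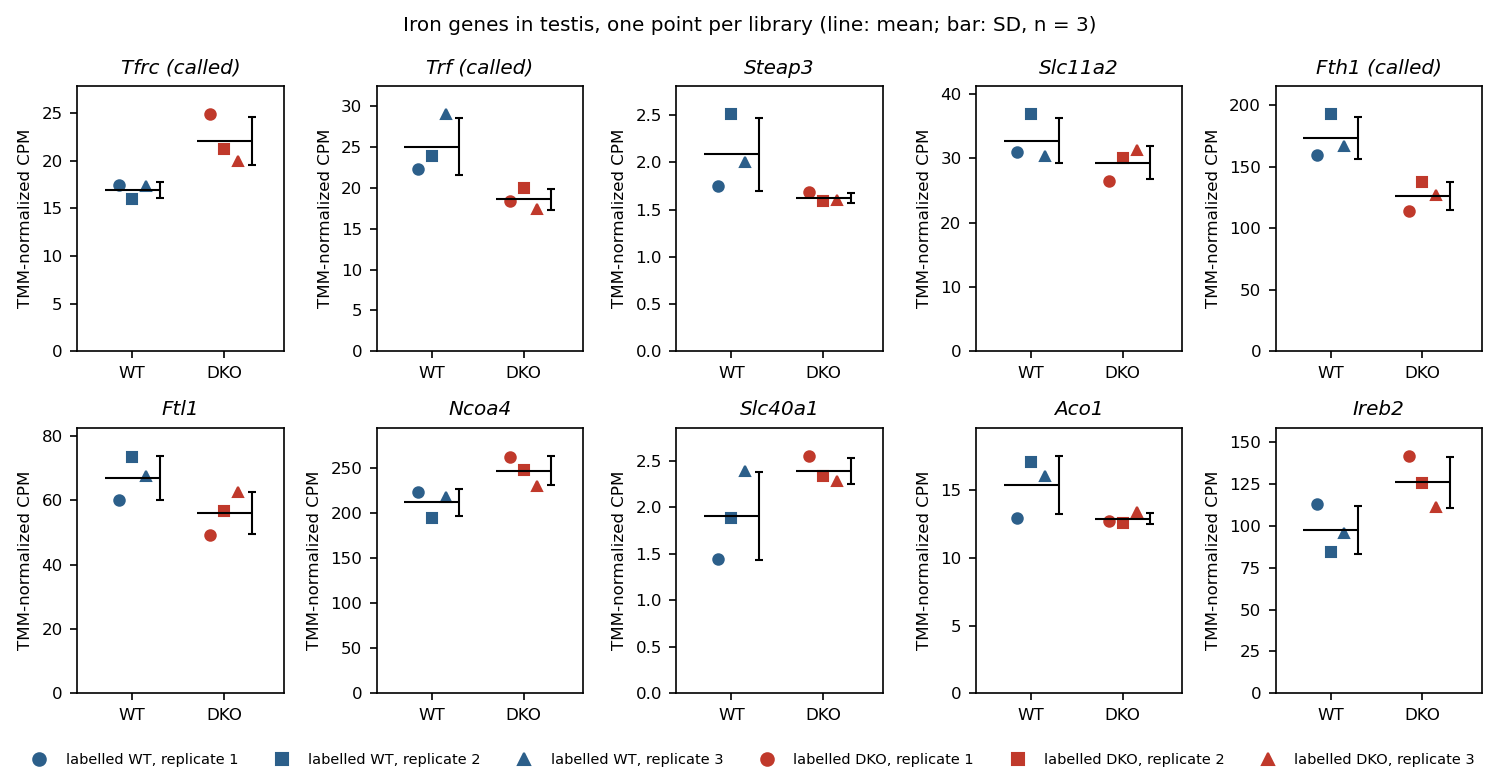
Level of each iron gene in TMM-normalized CPM (vertical axis, from 0) in the 3 libraries labelled WT and the 3 labelled DKO; points are libraries, lines means and bars SD. Fth1 and Trf are lower and Tfrc higher in every library labelled DKO than in any labelled WT, while the points of Slc11a2, Ftl1, Slc40a1, Aco1 and Ireb2 overlap.

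Uptake begins with Trf, the secreted transferrin itself (chr9:103208876-103230286, GRCm38.p6). Its exons overlap an annotated gene on the same strand, Gm20425, so part of its count is uncertain. Its level was 18.4, 19.95 and 17.4 CPM in libraries labelled DKO 1, 2 and 3, and 22.3, 23.8 and 29.0 CPM in those labelled WT 1, 2 and 3. Every library labelled DKO was below every one labelled WT. The means were 18.6 ± 1.27 and 25.0 ± 3.49 CPM (SD, n = 3 each). In the edgeR fit Trf fell by 25.8%, or -0.43 on the log2 scale (SE 0.106, adjusted p = 0.0354). The call was lost without DKO replicate 1 (edgeR adjusted p = 0.125), DKO replicate 2 (0.0556), WT replicate 2 (0.0918) or WT replicate 3 (0.118), with log2 fold changes from -0.52 to -0.31 over the 6 fits that each left out a library. With the trends on transcript length and GC content removed it was -0.37 (edgeR adjusted p = 0.072).

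Trf is a Sertoli cell product, and the Sertoli cell markers moved with it. Against 5.1% of all tested genes called lower and 5.75% called higher, 6 of 19 markers tested fell and 0 rose, and 15 of the 19 had a fold change below 0. The median log2 fold change of the markers was -0.21. With the trends on length and GC content removed it was -0.11, and 4 of the markers were called (2.96% of all tested genes). Their summed level was 1568 to 1804 CPM in libraries labelled DKO and 1824 to 2155 CPM in those labelled WT, without overlap, and none was at 0. The part of the Sertoli cell markers in the lower level of Trf was not tested.

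Tfrc, the transferrin receptor (chr16:32608896-32632794, 12.2 Mb from Abcc5), showed the opposite direction. It stood at 24.8, 21.2 and 20.0 CPM in libraries labelled DKO 1, 2 and 3, against 17.5, 15.9 and 17.4 CPM in those labelled WT 1, 2 and 3. The groups did not overlap, and the library labelled DKO 1 was the highest. The means were 22.0 ± 2.52 and 16.9 ± 0.848 CPM (SD, n = 3 each). In the edgeR fit Tfrc rose 1.30-fold, or 0.38 on the log2 scale (SE 0.0984, adjusted p = 0.0381). The call remained in 1 of the 6 fits that left out a library, the one without DKO replicate 3 (0.45; edgeR adjusted p = 0.014). It was lost without DKO replicate 1 (0.27; 0.147), DKO replicate 2 (0.40; 0.077), WT replicate 1 (0.39; 0.0529), WT replicate 2 (0.33; 0.144) and WT replicate 3 (0.40; 0.109).

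The Tfrc message is long and poor in G and C, at 4914 bases and 39.8% GC. It falls in the tenth of tested genes with the lowest GC content, in which the median log2 fold change was 0.29 and 23.7% of genes were called higher. With the trends on length and GC content removed, Tfrc was at 0.07 on the log2 scale (SE 0.0676, edgeR adjusted p = 0.565). An offset from effective lengths left Tfrc at 0.36 (edgeR adjusted p = 0.0414). This offset takes in fragment length only through the effective length of each gene, so other trends with fragment length remain. With fragment length as a covariate it was 0.04 (edgeR adjusted p = 1), and limma on log2(TPM + 1) gave 0.26 (limma adjusted p = 0.116).

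Inside the endosome, Steap3 reduces ferric iron and Slc11a2 (DMT1) carries ferrous iron out. Neither passed the test. Steap3 was at 1.68, 1.59 and 1.60 CPM in libraries labelled DKO and 1.75, 2.51 and 2.004 CPM in those labelled WT, with the nearest libraries of the groups separated by less than 0.1 CPM. The edgeR estimate was -0.37 on the log2 scale (SE 0.182, adjusted p = 0.186), and -0.27 with the trends on length and GC content removed (0.399). Slc11a2 was at 26.4, 30.1 and 31.4 CPM against 30.999, 36.8 and 30.4 CPM, and its groups overlapped, with an edgeR estimate of -0.16 on the log2 scale (SE 0.0969, adjusted p = 0.28) and of -0.14 with the trends removed (0.365).

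For Slc11a2 the tables also report on the choice of transcript, because the deposited length is an average over transcripts weighted by their estimated abundance. This length was 4146, 4161 and 4176 bases in libraries labelled DKO and 4197, 4173 and 4111 bases in those labelled WT. All 6 values lie between the 3025 bases of the shorter GENCODE transcript and the 4415 bases of the one that carries the window shown above. Lengths of the annotation behind the tables can differ from these, so no share of either transcript was derived. The means were 4161 ± 14.8 and 4160.2 ± 44.4 bases (SD, n = 3 each; exact permutation test, two-sided, p = 1). Among the 4 iron genes with more than 1 listed transcript the smallest p was 0.2, for Fth1, whose means of 942.7 and 942.3 bases differed by 0.31 bases (exact permutation test; adjusted over the 4 genes, 0.8). The smallest p that 3 against 3 libraries allow is 0.1.

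Among the storage genes only Fth1 was called. Fth1 (chr19:9980600-9985111) was at 114, 137 and 127 CPM in libraries labelled DKO 1, 2 and 3, and at 160.0, 193 and 167 CPM in those labelled WT 1, 2 and 3. The highest library labelled DKO lay below the lowest labelled WT. The means were 126 ± 11.6 and 173 ± 17.1 CPM (SD, n = 3 each). In the edgeR fit Fth1 fell by 27.1%, or -0.46 on the log2 scale (SE 0.0915, adjusted p = 0.0263). In TPM the means were 276 ± 17.9 and 375 ± 48.3 (SD, n = 3 each), and the limma test on log2(TPM + 1) called it at -0.43 (limma adjusted p = 0.0407). The edgeR call was lost without DKO replicate 1 (-0.40; adjusted p = 0.107), WT replicate 2 (-0.38; 0.0789) or WT replicate 3 (-0.48; 0.0993).

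Fth1 has a short message of 942.5 bases, and in the tenth of genes with the shortest transcripts the median log2 fold change was -0.15, with 16.0% called lower. With the effective-length offset its log2 fold change was -0.38 (edgeR adjusted p = 0.032), and with the trends on length and GC content removed it was -0.28 (SE 0.0726; edgeR adjusted p = 0.0647). With fragment length as a covariate, the values were -0.16 for Fth1 and -0.44 for Trf (edgeR adjusted p = 1 for both).

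Ftl1 was at 49.4, 56.7 and 62.4 CPM in libraries labelled DKO and 60.0, 73.4 and 67.4 CPM in those labelled WT. The library labelled DKO 3 lay above that labelled WT 1, so the groups overlapped. The edgeR estimate was -0.25 on the log2 scale (SE 0.0995, adjusted p = 0.108), and it was 0.02 with the trends on length and GC content removed (edgeR adjusted p = 0.906), where Ftl1 (970.0 bases, 58.1% GC) changed sign. The ratio of heavy to light chain in TPM was 2.42, 2.53 and 2.12 in libraries labelled DKO and 2.77, 2.73 and 2.58 in those labelled WT. The ratio was lower in each library labelled DKO than in any labelled WT (2.35 ± 0.211 against 2.69 ± 0.102, SD, n = 3 each). It is given as a description, without a test. Set against the receptor, the ratio of Fth1 to Tfrc in TPM was 33.8, 45.8 and 44.2 in libraries labelled DKO and 62.2, 79.4 and 64.4 in those labelled WT. Its lack of overlap follows from the TPM of Fth1 being lower, and of Tfrc higher, in every library labelled DKO than in any labelled WT. It adds no result to those of the single genes. No correction for length or GC trends was applied to these ratios.

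Ncoa4, the ferritin receptor for lysosomal breakdown, was at 262, 248 and 230.3 CPM in libraries labelled DKO and 224, 195 and 217 CPM in those labelled WT. The groups did not overlap. The log2 fold change was 0.22 (SE 0.0795) and missed the threshold (edgeR adjusted p = 0.0866). It passed without DKO replicate 3 (0.27; edgeR adjusted p = 0.0494), and it was 0.04 with the trends on length and GC content removed (0.74).

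Slc40a1, ferroportin, the only known exporter of iron from mammalian cells, was at 2.55, 2.34 and 2.28 CPM in libraries labelled DKO and 1.44, 1.88 and 2.39 CPM in those labelled WT. The library labelled WT 3 lay within the range of those labelled DKO. The edgeR estimate was 0.31 on the log2 scale (SE 0.19, adjusted p = 0.278). It was 0.14 with the trends on length and GC content removed (edgeR adjusted p = 0.699). Macrophages, which recycle iron through this exporter, had 0 of 10 markers called by edgeR and 1 by DESeq2, against 10.8% and 19.7% of all tested genes. An unadjusted edgeR p under 0.05 was found for 5 of the 10, against 31.7% of all tested genes. The markers had a median log2 fold change of -0.36 (-0.22 with the trends removed) and a summed level of 87.1 to 97.1 CPM against 82.0 to 127 CPM.

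The iron regulatory proteins were described last. Ireb2 encodes IRP2, which is degraded when iron is plentiful, and stood at 141, 126 and 111 CPM in libraries labelled DKO 1, 2 and 3, against 113, 84.2 and 95.8 CPM in those labelled WT 1, 2 and 3. The library labelled WT 1 lay above that labelled DKO 3. The edgeR estimate was 0.37 on the log2 scale (SE 0.113, adjusted p = 0.0561), close to that of Tfrc with a larger SE. It passed the threshold without DKO replicate 3 (0.45; edgeR adjusted p = 0.0187), without WT replicate 1 (0.47; 0.0293), with no count filter (0.38; 0.0389), on thinned counts (0.37; 0.0487) and with DESeq2 (DESeq2 adjusted p = 0.013). Ireb2 has 39.0% GC and 5808 bases. With the trends on length and GC content removed it was at 0.04 (edgeR adjusted p = 0.824).

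Aco1 encodes IRP1, which is also the cytosolic aconitase when it holds an iron-sulfur cluster. It was at 12.7, 12.6 and 13.4 CPM in libraries labelled DKO and 13.0, 17.1 and 16.1 CPM in those labelled WT, with the library labelled WT 1 inside the range of those labelled DKO. The edgeR estimate was -0.25 on the log2 scale (SE 0.107, adjusted p = 0.127), and it passed without WT replicate 1 (-0.38; edgeR adjusted p = 0.0352). With the trends on length and GC content removed it was -0.22 (edgeR adjusted p = 0.224). In TPM, the ratio of Ireb2 to Aco1 was 8.10, 7.28 and 6.06 in libraries labelled DKO and 6.37, 3.61 and 4.37 in those labelled WT, so IRP2 message exceeded IRP1 message in all 6 libraries, and the groups overlapped.

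**Figure D2:**
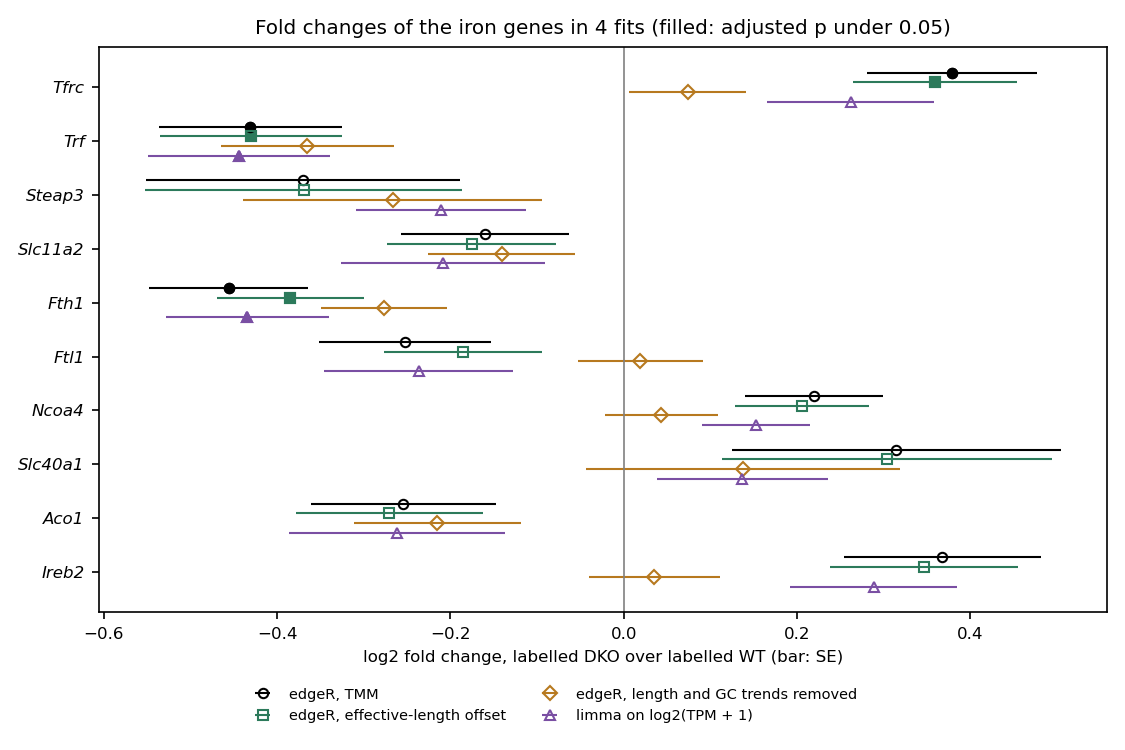
Log2 fold change of each iron gene, labelled DKO over labelled WT (horizontal axis; bars are SE), in 4 fits; filled symbols passed an adjusted p under 0.05. Tfrc, Ncoa4 and Ireb2 lie near 0 with the trends on length and GC content removed (0.07, 0.04 and 0.04), Ftl1 is at 0.02 there, and Trf, Fth1, Steap3, Slc11a2 and Aco1 are below 0 in all 4 fits.

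Some of the genes followed the order of the libraries' fragment lengths. The CPM of Tfrc, Ncoa4 and Ireb2 was higher the longer the mean fragment length within the libraries labelled DKO and also within those labelled WT, and that of Ftl1 was lower in both. Among all tested genes, 9.39% were ordered with fragment length in both groups and 5.63% against it. The other 6 iron genes followed neither order. With fragment length as a covariate the log2 fold changes were 0.04 for Tfrc, -0.03 for Ncoa4, -0.12 for Ireb2 and 0.17 for Ftl1, none of them called by edgeR.

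**Figure D3:**
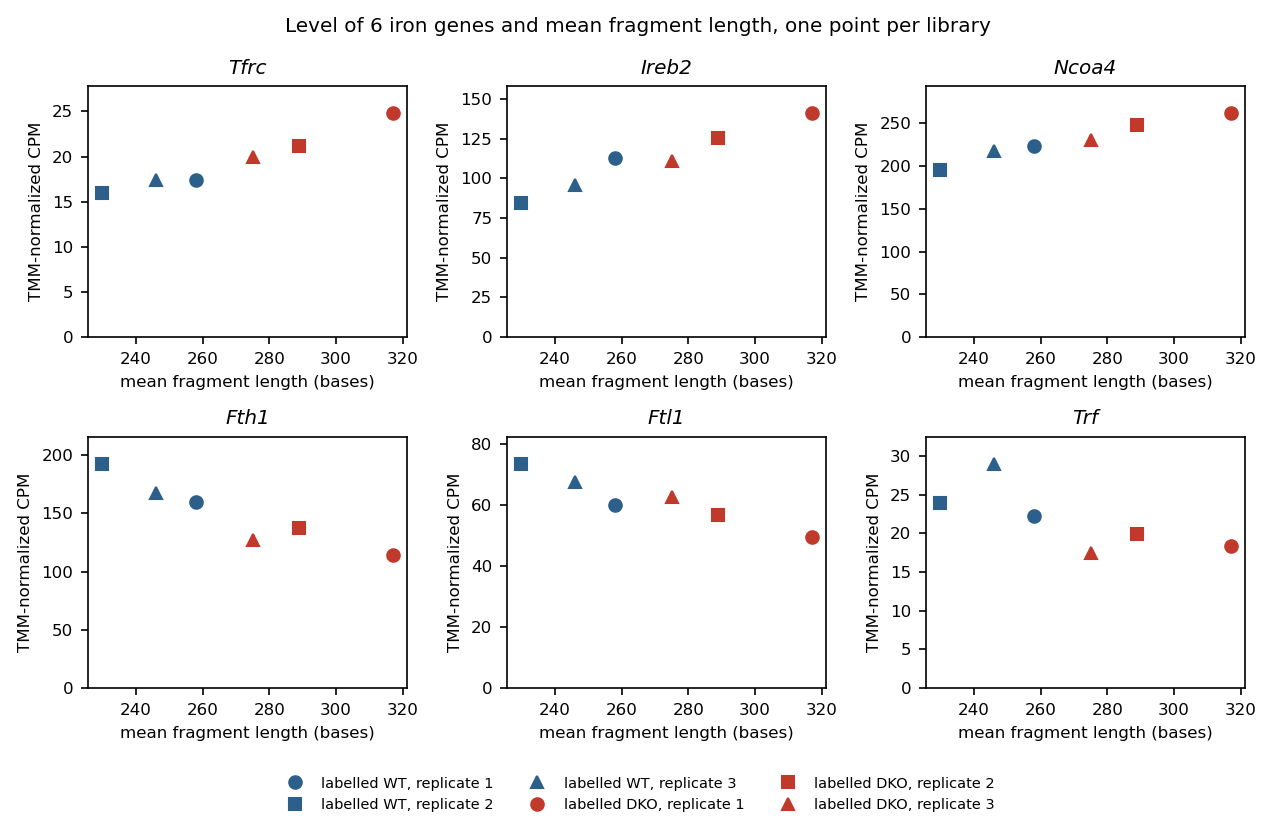
TMM-normalized CPM of 6 iron genes (vertical axes, from 0) against the mean fragment length of each library in bases (horizontal axes); each point is a library. Fragment lengths run from 230 to 258 bases in libraries labelled WT and from 275 to 317 bases in those labelled DKO, and within each group Tfrc, Ireb2 and Ncoa4 are higher in libraries with longer fragments.

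GC content separated the genes by direction. The 4 genes with fold changes above 0 had 39.0% (Ireb2), 39.8% (Tfrc), 43.5% (Slc40a1) and 43.8% (Ncoa4) GC, while the 6 below 0 had 51.3% (Slc11a2) to 58.1% (Ftl1). Trf and Fth1, at 52.5% and 53.5%, belong to a class of genes (52.0 to 53.8% GC) whose median log2 fold change was -0.08, with 5.05% called lower. Their own values of -0.43 and -0.46 were below that median, as was that of Aco1 in the same class, at -0.25. Slc11a2 (-0.16), Steap3 (-0.37) and Ftl1 (-0.25) were also below the medians of their classes, of -0.03, -0.13 and -0.18. With the trends on length and GC content removed, edgeR called neither Trf (adjusted p = 0.072) nor Fth1 (0.0647). The part of GC content in these values was not tested. Ireb2 (0.37) and Tfrc (0.38) belong to the class with a median of 0.29, and Ncoa4 (0.22) and Slc40a1 (0.31) to the class with a median of 0.20. These 4 values were above the medians of their classes.

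**Figure D4:**
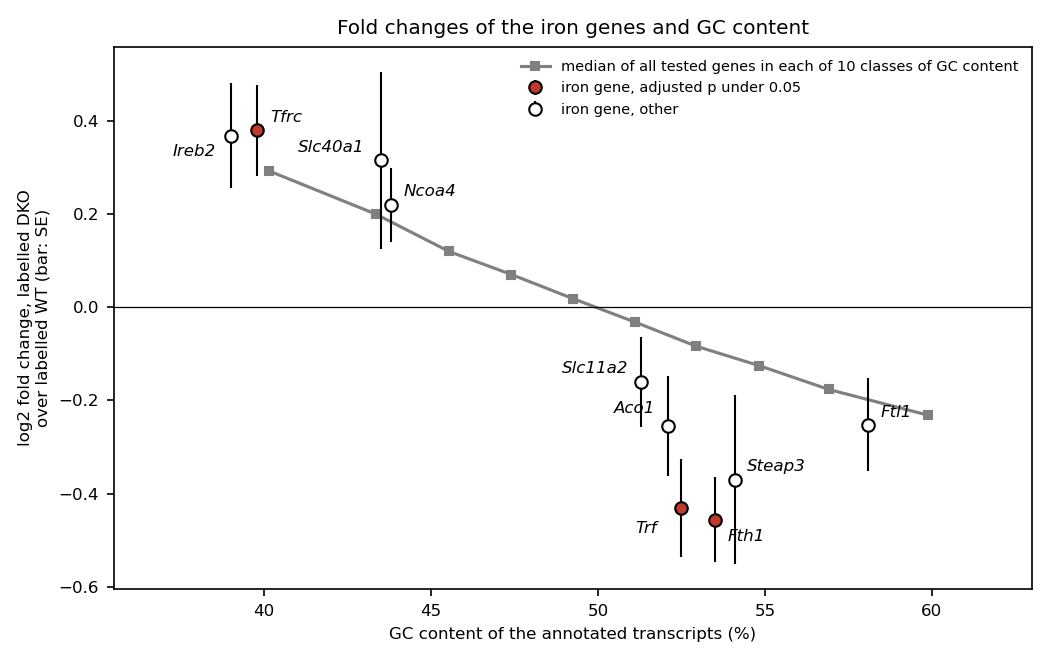
Log2 fold change, labelled DKO over labelled WT (vertical axis; bars are SE), against the GC content of the annotated transcripts in percent (horizontal axis) for the 10 iron genes, with the median of all tested genes in each of 10 classes of GC content in grey. The median falls from 0.29 to -0.23 with rising GC content. The iron genes with fold changes below 0 all lie below that line, with Trf and Fth1 at -0.43 and -0.46. Those with fold changes above 0 are above the medians of their classes.

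Of 54 further iron genes, 48 were tested, and 3 were called, 1 higher and 2 lower, a share below the 10.8% of all tested genes. Their median log2 fold change was -0.04, with 21 above and 27 below 0. Among 15 tested genes of uptake and reduction, Scara5, a scavenger receptor that takes up ferritin, fell. It was at 64.0, 70.7 and 69.8 CPM in libraries labelled DKO and 79.8, 89.8 and 82.3 CPM in those labelled WT, without overlap (-0.30 on the log2 scale, SE 0.0751, edgeR adjusted p = 0.0362). The other transferrin receptor gene, Tfr2, which senses iron in liver, was not called, at 3.66 ± 0.51 against 4.01 ± 0.495 CPM (SD, n = 3 each). Lcn2, which binds the iron carriers of bacteria, had a log2 fold change of -0.80 (edgeR adjusted p = 0.0574), with 145 CPM in the library labelled WT 2 against 58.3 and 76.3 CPM in the other libraries labelled WT.

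Among 12 tested genes of storage and iron chaperoning, 11 had fold changes below 0 and 1 was called, against 10.8% of all tested genes. The called gene was a ferritin heavy chain-like gene of the X chromosome. This gene, Fthl17a, which the tables list as 1600014K23Rik, was at 7.28, 8.45 and 7.11 CPM in libraries labelled DKO and 11.1, 9.70 and 9.08 CPM in those labelled WT (-0.39 on the log2 scale, SE 0.113, edgeR adjusted p = 0.0497). Its relatives Fthl17b, Fthl17c, Fthl17e and Fthl17f had log2 fold changes of -0.78, -0.72, -1.10 and -0.58 at under 1 CPM. None of the 4 was called, and their counts were fractional, so fragments were divided between them and other transcripts and their values are uncertain. Fthl17a and these 4 relatives are among the 11 genes below 0, so that count is not one of unrelated genes. Ftmt, the mitochondrial ferritin, was at 73.5 ± 3.91 against 75.9 ± 9.70 CPM (SD, n = 3 each; edgeR adjusted p = 0.778). Pcbp1, a chaperone that brings iron to ferritin, was at 125 ± 13.3 against 148 ± 1.69 CPM (SD, n = 3 each; edgeR adjusted p = 0.0726).

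Of 8 tested genes of export and systemic control edgeR called 0 and DESeq2 0, with 1 at an unadjusted edgeR p under 0.05 (31.7% of all tested genes). Hamp, the liver hormone hepcidin that closes ferroportin, was too low to test. Of 13 genes that act on iron regulatory proteins, bind message tails or carry further iron responsive elements, 1 was called. This was Cdc14a, a phosphatase, which rose. Its level was 230.5, 215.5 and 184 CPM in libraries labelled DKO and 166, 139 and 161 CPM in those labelled WT, without overlap (0.44 on the log2 scale, SE 0.0968, edgeR adjusted p = 0.0296). Fbxl5, the iron-sensing ubiquitin ligase subunit that marks IRP2 for degradation, was at 103 ± 6.84 against 94.3 ± 5.82 CPM (SD, n = 3 each; edgeR adjusted p = 0.269), and Cul1, the scaffold of the same ligase, had a log2 fold change of 0.31 (edgeR adjusted p = 0.0669). Alas2, the heme synthesis enzyme of red cell precursors whose message has an element near its start, did not differ beyond its spread, at 22.8 ± 2.76 against 22.6 ± 1.63 CPM (SD, n = 3 each). Among the hemoglobin genes, which mark red cells, Hba-a1 was at 3.93 CPM (173 counts) in the library labelled DKO 2 and at 0.222 to 0.797 CPM (11 to 21 counts) in the others, and Hbb-bt had 12.15 counts in DKO 2 and 0 to 2.25 in the others. Hba-a2 and Hbb-bs were listed at 0 in all libraries. Without DKO replicate 2, the library with the most hemoglobin counts, the log2 fold changes of Fth1, Trf and Tfrc were -0.53, -0.49 and 0.40. In that fit edgeR called Fth1 (adjusted p = 0.0265) but neither Trf (0.0556) nor Tfrc (0.077). The part of red cell RNA in the results was not tested.

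The 3 calls among the further iron genes also depended on single libraries. Scara5 and Cdc14a each lost the call without DKO replicate 1, DKO replicate 2, WT replicate 2 or WT replicate 3, with log2 fold changes from -0.35 to -0.26 for Scara5 and from 0.35 to 0.52 for Cdc14a over the 6 fits that left out a library. Fthl17a lost it in all 6, with values from -0.48 to -0.32. With the trends on length and GC content removed, the log2 fold changes were -0.23 for Scara5, 0.26 for Cdc14a and -0.16 for Fthl17a (edgeR adjusted p = 0.066, 0.0897 and 0.42).

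**Figure D5:**
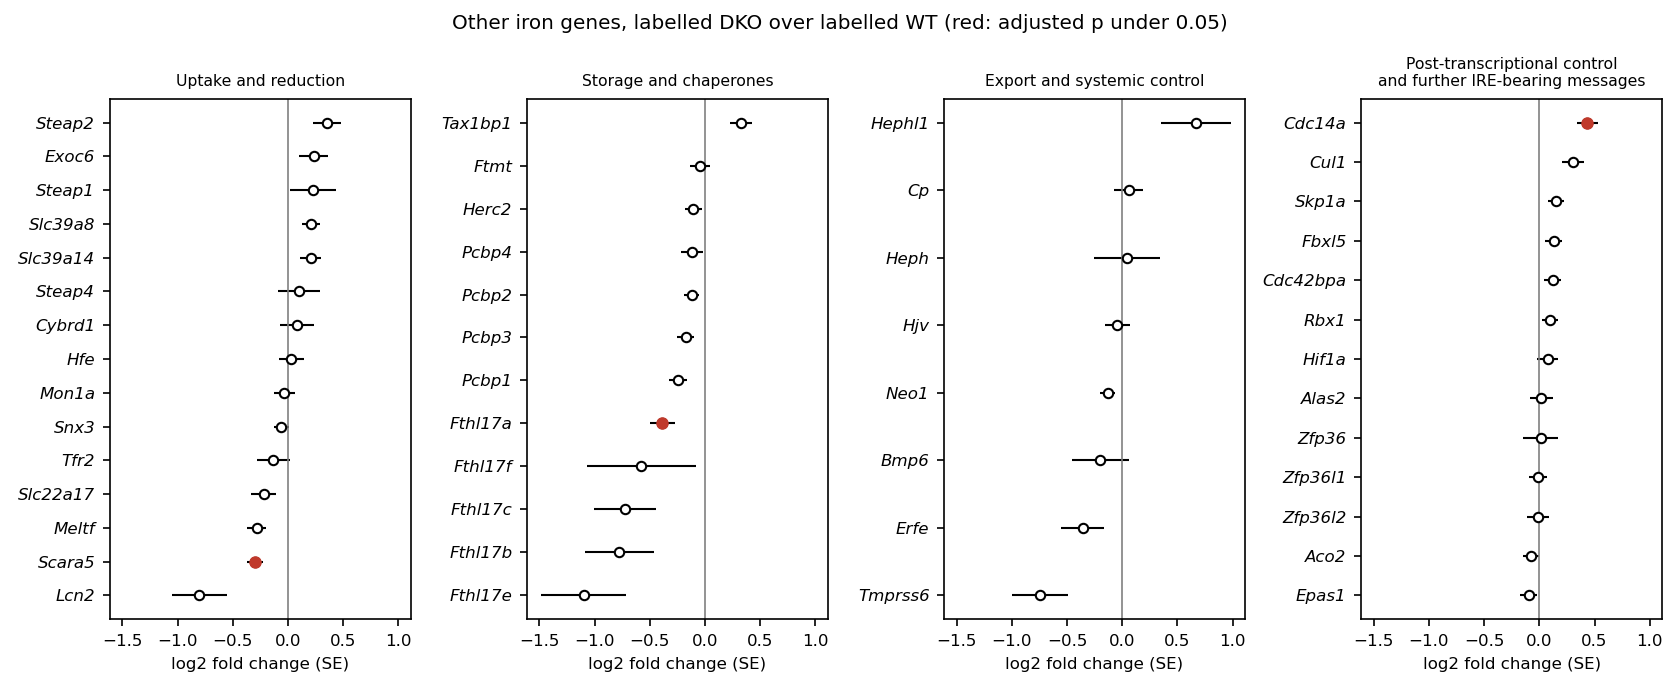
Log2 fold change, labelled DKO over labelled WT (horizontal axis; bars are SE), of the 48 tested further iron genes in 4 groups by role; red points passed an edgeR adjusted p under 0.05. The red points are Scara5 at -0.30, Fthl17a at -0.39 and Cdc14a at 0.44, and the bars of Fthl17b, Fthl17c, Fthl17e and Fthl17f, all under 1 CPM, are wide.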

How the data were processed

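Whole-testis RNA was sequenced from 3 animals labelled DKO and 3 labelled WT; groups follow the genotype label, and replicate numbers only name animals. The deposited tables are gene-level RSEM output with 1 file a library. Per the submitters' processing notes, STAR 2.7.0f, RSEM 1.2.31, DESeq2 1.12.3 and build mm10 were used; filters and strand handling are not given in the sources used here. Expected counts, which RSEM estimates, are the deposited unit that was tested; 93.2% lay within 0.005 of a whole number, and all were rounded. TPM values were scaled by the authors to a fixed sum and were used as deposited; the deposited FPKM column was left untested. The deposited lengths are averages over transcripts, and a library's mean fragment length was read from how far the effective length falls short of the length, by its median over genes longer than 3000 bases.

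Genes were kept by filterByExpr (17110 genes), scaled by TMM and tested by the edgeR 4.0.16 quasi-likelihood test on genotype, with Benjamini-Hochberg adjustment over all tested genes and a threshold of 0.05. Fold changes put the libraries labelled DKO over those labelled WT, and an SE is the fold change divided by the root of F. The series speaks of 3 mice a group; the labels say nothing of litters or days, so p-values measure only the spread between these samples. Alternatives were DESeq2 1.42.0, limma 3.58.1 (voom, and log2(TPM + 1) or log2(TPM + 0.1)), other scaling and filters, thinning to the smallest total, fragment length as a covariate, an effective-length offset, an offset for trends on length and GC content (mgcv 1.9.3), and leaving out each library. The scripts were tested on simulated counts. GC content came from GENCODE M21 transcripts with the same RefSeq accessions (97.8% of genes, 10 of 10 iron genes), coordinates of genes from RefSeq GRCm38.p6, and older symbols from the same table (1 marker symbol, Ahsp, was unmatched). None of the 10 genes had fractional counts; Trf, Slc11a2 and Ftl1 share exonic sequence with another annotated gene, so their counts are uncertain.

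The named genes are the 10 iron genes, both targeted genes and every called gene of 4 lists of further iron genes; other genes of those lists were named after their values were seen. The genes and lists were chosen with earlier results of these data known.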

Additional observations from a re-analysis of the deposited data

How the results depend on the processing

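With 3 libraries a group, calls were close to the threshold. With each replicate left out in turn, the number called ranged from 7 to 3029 among all genes, from 0 to 6 among the 10 iron genes and from 0 to 6 among the further iron genes. It was 0 for the 10 iron genes without DKO replicate 1, WT replicate 2 or WT replicate 3, where edgeR called 11, 13 and 7 genes in all. In these fits 4, 4 and 6 of the 10 had an unadjusted edgeR p under 0.05, as had 3571, 3793 and 4326 of all genes. At a stricter adjusted threshold of 0.01 edgeR left 7 genes in all, 0 of the 10 and 0 of the further genes. With fragment length as a covariate edgeR called 1, 0 and 0 (unadjusted p under 0.05: 563, 0 and 4), and with the trends on length and GC content removed 507, 0 and 0 (3680, 3 and 9). DESeq2 called 2864 genes in all, 4 of the 10 and 7 further genes. Limma called 735 genes on log2(TPM + 1), 279 of them higher, and 947 on log2(TPM + 0.1), 370 higher; in each, 2 of the 10 (Fth1 and Trf) and 1 further gene were called. Without the count filter 5 further genes and 4 of the 10 were called, and on thinned counts 4 of the 10, Ireb2 being added in both. The other settings kept Fth1, Trf and Tfrc called.

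With fragment length as a covariate, which does not overlap between the groups, the log2 fold changes of Slc11a2, Ftl1, Ncoa4 and Ireb2 changed sign, to 0.18, 0.17, -0.0312 and -0.12, and with the trends removed that of Ftl1 did, to 0.0192. The cause was not tested. Differences in deposited length (labelled DKO minus labelled WT) ranged over the fits without a replicate from -20.1 to 7.23 bases for Steap3, -24.0 to 19.0 for Slc11a2, 0.19 to 0.47 for Fth1 and -5.61 to 0.11 for Ncoa4; the sign changed without WT replicate 3 for Steap3 (7.23), without DKO replicate 3 (-6.70) or WT replicate 3 (-24.0) for Slc11a2, and without DKO replicate 1 for Ncoa4 (0.11). No paired analysis was possible because the replicate numbers follow the order of deposition and pair no animals. Steap3 and Slc40a1, with 38 to 154 counts a library, are limited by depth.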
